A study of Rattus norvegicus with 16 samples.

Results

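Interferon-stimulated genes were followed across the proximal femora of 4 inbred rat strains. A list of 43 such genes was matched to the array by gene symbol, and each gene was represented by the probe set with the highest mean log2 signal over all 16 arrays. A probe set is the group of short probes that reports 1 transcript, and only probe sets annotated with a single symbol were used. Of the 43 genes, 38 had such a probe set, out of 14217 named genes. More than 1 probe set was found for 8 of the 38, so the others, Ifit1 and Trim25 among them, rest on 1 probe set each. Oas2, Oasl2, Rigi, Gbp5 and Xaf1 had none under those symbols and were not analysed here. The signals of 35 genes passed the filter on low values, a mean signal of 174, and entered the tests with 10548 genes in all, while Dhx58, Oas1b and Gbp4 lay under it.

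The arrays carried total RNA of the proximal femur, which includes the femoral neck, from 4-week-old Fischer 344 (F344), Lewis (LEW), Copenhagen 2331 (COP) and Dark Agouti (DA) rats, with 4 arrays for each strain. No treatment, transgene or sex is given in the labels, so the strains are compared as they stand. The chromosome 4 locus that the study was about came from a cross of F344 with LEW. Whether the 4 replicates of a strain came from different animals is not stated, so a p-value here reflects only the spread of these arrays, which may be technical. Each array gave signals with a median between 302 and 324 over its probe sets, and no 2 arrays held the same values (correlations within strains from 0.977 to 0.989). The labelled tissue was checked against bone markers: Col1a1, the main bone collagen chain, had signals from 56190 to 75008 and Bglap, osteocalcin, from 48771 to 63221 over all 16 arrays.

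Interferons are cytokines that cells release when their sensors meet viral nucleic acid. Type I interferons bind the receptor pair Ifnar1 and Ifnar2, and the kinases Jak1 and Tyk2 then activate a complex of STAT proteins with Irf9 that enters the nucleus and binds interferon-stimulated response elements. Interferon gamma uses Ifngr1 and Ifngr2 and a STAT dimer that binds a different, palindromic element. The induced genes encode sensors, transcription factors, antiviral effectors and feedback inhibitors, many of which also have a low level in unstimulated tissue. In bone, interferons are known to restrain the formation of osteoclasts from marrow macrophage precursors.

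LEW femora had the lowest mean levels of most of these genes and COP femora the highest. The LEW mean was the lowest of the 4 strain means for 25 of the 35 genes (24.3% of all genes tested), while it was the highest for 0 (19.8% of all genes). The COP mean was the highest for 23 (27.2% of all genes), the F344 mean for 8 and the DA mean for 4. COP replicates 2 and 4 were both above replicates 1 and 3 for 26 of the 35 genes. That grouping, chosen after the values were seen, held for 13.9% of all genes. The first place of COP rested on those 2 arrays for some genes and not for others. Irf7 read 1550 and 1676 on replicates 1 and 3, against a DA mean of 1783, while Ifih1 was highest on all 4 COP arrays. In a limma F-test over the 4 strains, 28 of the 35 genes had an adjusted p under 0.05, hereafter called, against a background of 32.9% of all genes. The 7 not called were Stat2, Herc6, Oasl, Irgm, Cmpk2, Sp100 and Epsti1. On all 4 LEW arrays the signals of Isg15, Usp18, Irf7, Ifi27 and Dtx3l lay below those of all 12 other arrays, as was the case for 1.52% of all genes. COP was above all other arrays for Ifih1, Ifit3, Mx2 and Ifi35 (2.52% of all genes), F344 for Irf1, Gbp2 and Ifi44l (2.25%), and DA for Ifit1 and Rsad2 (1.18%). Ifit3 and Mx2 passed the filter through their COP signals. No member was highest on all 4 LEW arrays (1.08% of all genes), and Trim25 alone was lowest on all 4 DA arrays (1.03%).

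**Figure D1:**
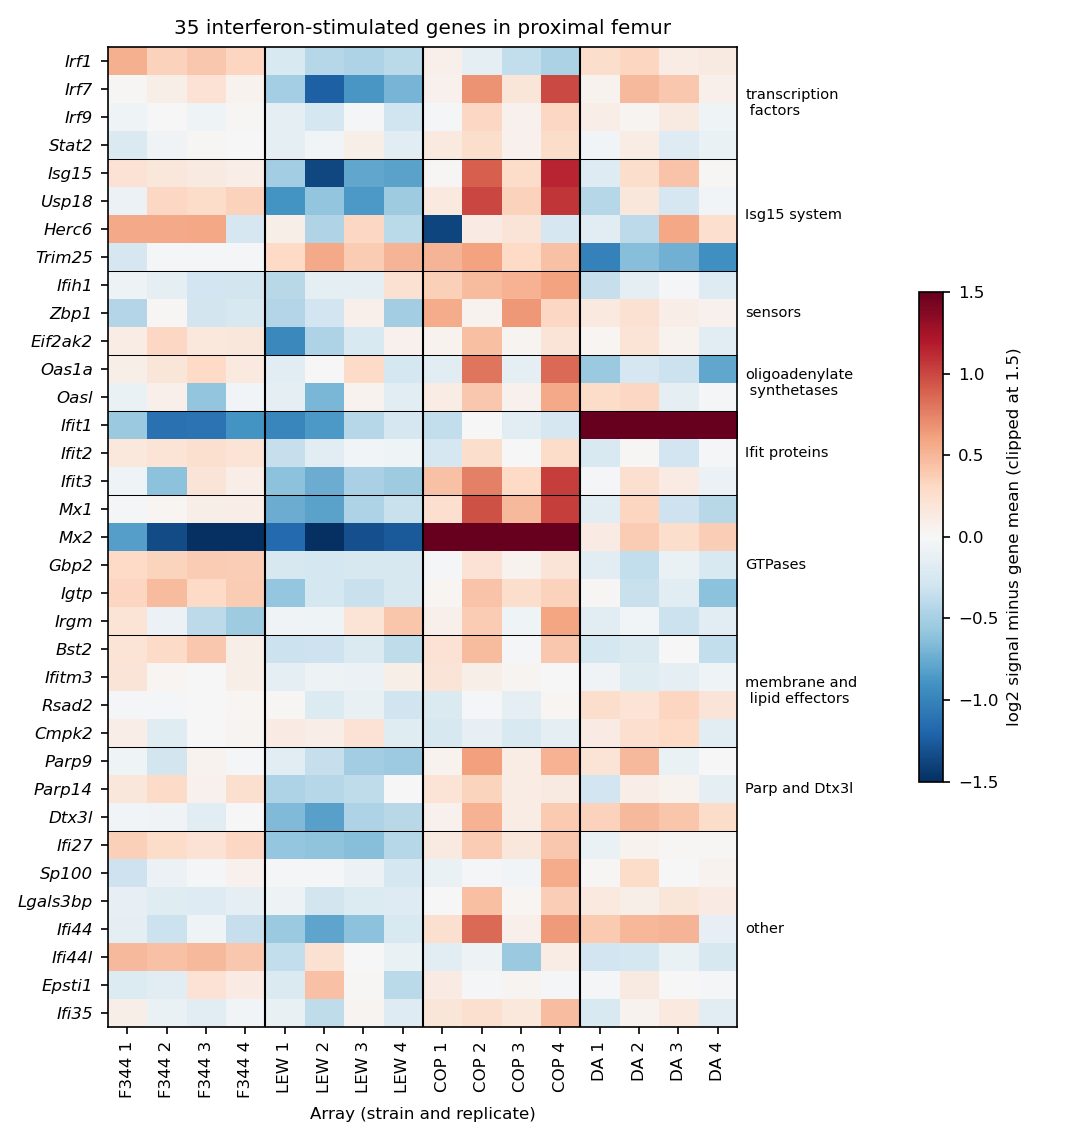
Log2 signal of the 35 genes tested on each of the 16 arrays, with each gene's mean over all arrays subtracted and values beyond 1.5 in either direction shown at 1.5. Rows are genes grouped by role and columns are arrays grouped by strain. The LEW columns are mostly blue, COP replicates 2 and 4 are the reddest, and Ifit1 in DA and Mx2 in COP stand out from their own rows.

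The response elements are shown for genes whose levels separated the strains below. RefSeq's promoter windows of the rat assembly GRCr8, which is of a strain other than these 4, run from 250 bases before to 50 bases after a gene's start and were held for 31 of the 38 genes. The core of the interferon-stimulated response element was searched as GAAANNGAAA on both strands, so that TTTCNNTTTC counts as a match. It was present in 20 of the 31 windows, a share of 64.5%, against 4.12% of the windows of 27457 genes. The palindrome TTCNNNGAA of STAT dimers, which reads the same on both strands, was present in 10 of the 31 windows (32.3%), against 9.39% of all windows. A match of each can share bases with the other, and these matches are letters in a window and not measured binding sites. The 200 bases upstream of the start are printed 5′ to 3′ on the gene's own strand, with matches to GAAANNGAAA or its reverse complement in capitals for the first 5 genes and the match to TTCNNNGAA in capitals for Irf1, whose window holds no GAAANNGAAA.
Irf7 promoter, chr1:205800024-205800223, minus strand: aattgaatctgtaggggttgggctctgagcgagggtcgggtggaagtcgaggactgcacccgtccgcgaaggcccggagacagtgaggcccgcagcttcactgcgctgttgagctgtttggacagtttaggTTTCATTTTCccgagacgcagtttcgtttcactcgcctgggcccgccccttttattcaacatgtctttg
Ifi27 promoter, chr6:128355112-128355311, plus strand: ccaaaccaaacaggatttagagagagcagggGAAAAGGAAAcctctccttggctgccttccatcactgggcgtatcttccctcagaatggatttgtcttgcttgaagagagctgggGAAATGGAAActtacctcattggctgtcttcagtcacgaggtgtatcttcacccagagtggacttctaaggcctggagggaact
Gbp2 promoter, chr2:234005527-234005726, plus strand: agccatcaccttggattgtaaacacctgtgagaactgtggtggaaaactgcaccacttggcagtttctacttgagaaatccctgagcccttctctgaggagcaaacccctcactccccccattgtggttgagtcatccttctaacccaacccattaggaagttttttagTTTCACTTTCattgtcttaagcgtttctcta
Bst2 promoter, chr16:18254968-18255167, minus strand: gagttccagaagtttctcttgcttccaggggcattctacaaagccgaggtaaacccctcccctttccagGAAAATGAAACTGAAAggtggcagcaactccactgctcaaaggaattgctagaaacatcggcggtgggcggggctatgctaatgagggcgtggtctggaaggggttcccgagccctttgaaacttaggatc
Ifit3 promoter, chr1:241527126-241527325, plus strand: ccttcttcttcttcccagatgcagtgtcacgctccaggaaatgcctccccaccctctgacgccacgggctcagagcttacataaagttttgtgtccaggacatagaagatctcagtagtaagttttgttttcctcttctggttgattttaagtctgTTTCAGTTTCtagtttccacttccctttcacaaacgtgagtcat
Irf1 promoter, chr10:38417735-38417934, plus strand: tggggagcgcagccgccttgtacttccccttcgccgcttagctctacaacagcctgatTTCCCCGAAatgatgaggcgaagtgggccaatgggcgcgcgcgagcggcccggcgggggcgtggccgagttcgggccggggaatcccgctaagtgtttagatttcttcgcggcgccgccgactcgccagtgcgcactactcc
The Ifi27 stretch holds 2 separate matches, and the Bst2 stretch holds 2 that overlap. The windows of Trim25 and Mx1 hold no GAAANNGAAA, which says only that these letters are not in that stretch.

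Among the transcription factors, Irf7 was low in LEW and Irf1 was high in F344 and DA. Irf7 drives the amplification of type I interferon genes and is itself induced. Irf7 had signals of 1495, 1569, 1721 and 1534 in F344 femora, 1041, 635, 811 and 913 in LEW femora, 1550.2, 2368, 1676 and 2954 in COP femora and 1532, 2069, 1968 and 1562 in DA femora. All LEW values lay below every other array, and the COP values spread widely. For Irf7, the log2 difference was 0.92 (SE 0.17, adjusted p = 0.000689) for F344 minus LEW, -1.30 (SE 0.17, adjusted p = 1.02e-05) for LEW minus COP and -1.08 (SE 0.17, adjusted p = 0.000127) for LEW minus DA. Irf1 binds related elements and is a main mediator of the interferon gamma response. The signals of Irf1 were 2269, 1986, 2069 and 1968 on the F344 arrays, 1334, 1166, 1139 and 1183 on the LEW arrays, 1659, 1421, 1212 and 1129 on the COP arrays and 1886, 1961, 1696 and 1722 on the DA arrays. F344 lay above all other arrays, DA above all LEW and COP arrays, and LEW and COP overlapped. Irf1 was 1.72-fold higher in F344 than in LEW, a log2 difference of 0.78 (SE 0.099, adjusted p = 9.44e-06), and LEW minus COP was -0.16 (adjusted p = 0.356). Irf9, the DNA-binding partner of the STAT complex, was lower in LEW than in COP (log2 difference -0.35). Its second probe set, also lower in LEW than in COP, gave -0.39. Stat2, the other specific part of that complex, had signals from 913 to 1276 over all arrays. Its difference was called for F344 minus COP alone (-0.25, adjusted p = 0.0460), although the F-test over the 4 strains did not call it. A second Stat2 probe set was called for LEW minus COP alone (-0.73, adjusted p = 0.00244) and gave -0.40 for F344 minus COP (adjusted p = 0.0781).

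Among the 35 genes tested, Isg15 had the largest difference between F344 and LEW. Isg15 is a small ubiquitin-like protein that is attached to newly made proteins during an interferon response. F344 arrays gave Isg15 signals of 815, 789, 773 and 751, LEW arrays 487, 271, 409 and 404, COP arrays 711, 1310, 849.7 and 1543 and DA arrays 613, 845, 945 and 711. The LEW arrays lay below all others, and COP replicates 2 and 4 were the highest of the 16. Isg15 was 2.03-fold higher in F344 than in LEW (log2 difference 1.02, SE 0.20, adjusted p = 0.00141). It was 2.73-fold lower in LEW than in COP (log2 difference -1.45, SE 0.20, adjusted p = 2.78e-05) and lower in LEW than in DA (log2 difference -0.998, SE 0.20, adjusted p = 0.00210). Usp18 removes Isg15 from its targets and binds the receptor chain Ifnar2 to damp signalling. Usp18 had signals of 355, 468, 455 and 479 in F344 femora, 203, 250.5, 208 and 261 in LEW femora, 417, 757, 480.1 and 796 in COP femora and 281, 423, 317 and 368 in DA femora. LEW was again below every other array, and the LEW minus DA difference of -0.58 missed the threshold (adjusted p = 0.0578). On the log2 scale, Usp18 differed by 0.93 (SE 0.19, adjusted p = 0.00206) for F344 minus LEW, -1.36 (SE 0.19, adjusted p = 2.90e-05) for LEW minus COP and 0.78 (SE 0.19, adjusted p = 0.00959) for COP minus DA. The COP and DA arrays overlapped, and without COP replicates 2 and 4 the COP minus DA difference was 0.38 (adjusted p = 0.270).

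Trim25, a ubiquitin ligase that activates an RNA sensor, ran against Isg15 and Usp18 where LEW was compared with F344 and DA. Like theirs, its highest mean was in COP. The signals of Trim25 were 2282, 2693, 2684 and 2660.1 on the F344 arrays, 3363, 4052, 3543 and 3878 on the LEW arrays, 3890.2, 4129.7, 3352 and 3689.7 on the COP arrays and 1349, 1756, 1656 and 1441 on the DA arrays. DA lay below all other arrays, F344 below all LEW and COP arrays, and LEW and COP overlapped. Its log2 difference was -0.52 (SE 0.089, adjusted p = 0.000321) for F344 minus LEW, 1.28 (SE 0.089, adjusted p = 2.22e-09) for COP minus DA, 0.74 (SE 0.089, adjusted p = 4.97e-06) for F344 minus DA and 1.26 (SE 0.089, adjusted p = 1.89e-09) for LEW minus DA. Herc6, a ligase that attaches Isg15 in mouse, passed no contrast and had signals from 81.3 to 318, with a wide spread inside every strain. Usp18 and Herc6 were the members on chromosome 4, the chromosome that the study was about.

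**Figure D2:**
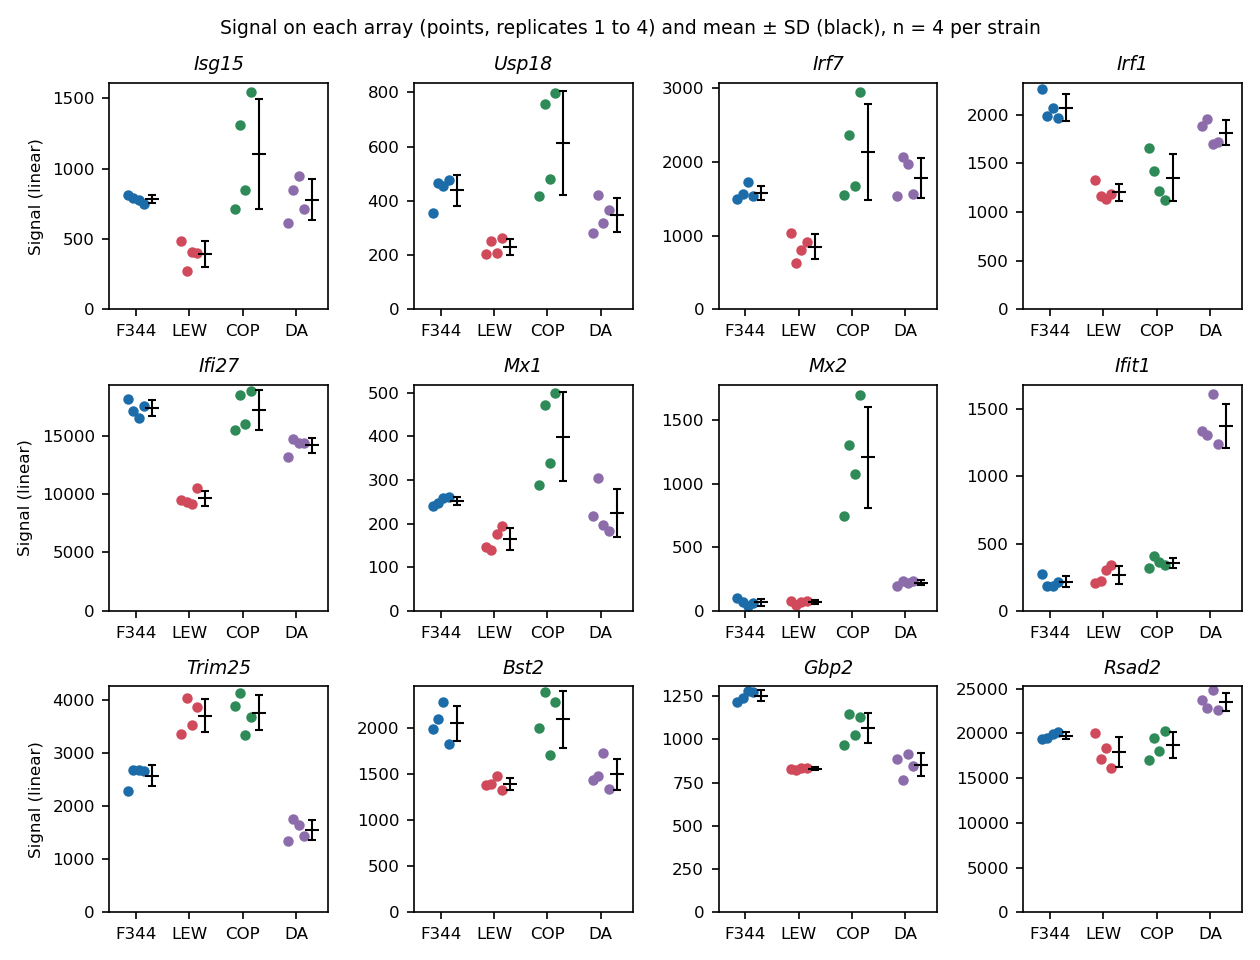
Deposited signal of 12 members on each array (linear scale from 0), by strain from F344 at the left to DA at the right. Points are arrays and bars are the mean ± SD of 4 arrays. Isg15, Usp18, Irf7 and Ifi27 are lowest on the LEW arrays, Ifit1 is highest on the DA arrays, Mx2 on the COP arrays and Trim25 is lowest on the DA arrays.

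By its only named probe set, Ifit1 separated DA from the other strains. The Ifit proteins bind viral RNA and block its translation. F344 arrays gave Ifit1 signals of 276, 188, 189 and 218, LEW arrays 206, 223, 302 and 342, COP arrays 315, 404, 365 and 342 and DA arrays 1338, 1306, 1609 and 1242. The lowest DA value, 1242, was above the highest of the other strains, 404. Strain differences on the log2 scale were -2.67 (SE 0.16, adjusted p = 2.31e-10) for F344 minus DA, -2.38 (SE 0.16, adjusted p = 1.26e-09) for LEW minus DA and -1.94 (SE 0.16, adjusted p = 4.29e-08) for COP minus DA, which are 6.36-, 5.21- and 3.85-fold lower levels. It was also lower in F344 than in COP (log2 difference -0.73, SE 0.16, adjusted p = 0.00341). Ifit3 is read from the same cluster on chromosome 1. Ifit3 had signals of 189, 129.7, 226 and 212 in F344 femora, 129.7, 118, 142 and 137 in LEW femora, 270.1, 334, 244 and 406 in COP femora and 194, 234, 215 and 187 in DA femora. COP was highest, and the LEW mean of 132 lay under the filter level. Ifit3 passed the filter through its COP signals, as its geometric mean over the F344, LEW and DA arrays lay just under that level. Its calls against COP are therefore not independent of the filter. Tested on the log2 scale, Ifit3 gave -1.22 (SE 0.20, adjusted p = 0.000188) for LEW minus COP and -0.73 (SE 0.20, adjusted p = 0.0137) for F344 minus COP. For F344 minus COP the adjusted p was 0.0620 without F344 replicate 2 and 0.0615 without COP replicate 4, within a range of 0.00743 to 0.255 over all alternatives. Ifit2, next to Ifit3 in the genome, differed little: F344 averaged 1358 ± 29.8, LEW 1069 ± 99.2, COP 1256 ± 211 and DA 1086 ± 112 (SD, n = 4 each). Its F344 minus LEW difference of 0.35 was called (adjusted p = 0.0339), and that of its second probe set, 0.07, was not. The second set was called for COP minus DA instead (0.51, adjusted p = 0.0314), and the brighter one was not.

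Of the GTPases, Mx2 differed most between strains. Mx proteins are large GTPases that block viral replication. The signals of Mx2 were 102, 71.6, 36.9 and 58.5 on the F344 arrays, 81.1, 46.8, 73.0 and 75.7 on the LEW arrays, 746, 1302, 1076 and 1695 on the COP arrays and 198, 237, 219 and 236 on the DA arrays. The COP arrays lay above all others and the DA arrays above all F344 and LEW arrays, whose means of 67.3 and 69.2 were under the filter level. Mx2 passed the filter through its COP signals, as its geometric mean was 98.2 over the other 12 arrays. The COP geometric mean of 1154 was 6.65-fold above the filter level, and all 8 F344 and LEW values lay below that level. The fitted log2 differences of -4.19 for F344 minus COP (SE 0.28, adjusted p = 7.97e-10) and -4.09 for LEW minus COP (SE 0.28, adjusted p = 1.32e-09) rest on those low signals, so their size is uncertain. The difference was 2.38 (SE 0.28, adjusted p = 4.72e-06) for COP minus DA, and both F344 and LEW were called lower than DA. A second Mx2 probe set, under the filter and not tested, did not show a high COP level. Its means were 171 for F344, 96.2 for LEW, 155 for COP and 149 for DA. Mx1, with 1 protein-coding gene between it and Mx2, was lowest in LEW. F344 arrays gave Mx1 signals of 239.5, 248, 258 and 260.2, LEW arrays 146, 139.9, 177 and 194, COP arrays 289, 471, 339.7 and 499 and DA arrays 217, 305, 197 and 182. LEW lay below all F344 and COP arrays and overlapped DA. For Mx1, the log2 difference was -1.26 (SE 0.20, adjusted p = 0.000104) for LEW minus COP, 0.82 (SE 0.20, adjusted p = 0.00823) for COP minus DA, 0.63 (SE 0.20, adjusted p = 0.0383) for F344 minus LEW and -0.63 (SE 0.20, adjusted p = 0.0279) for F344 minus COP. The F344 minus LEW call was lost when any of 7 of the 8 arrays was left out, with adjusted p from 0.0270 to 0.105 over all alternatives. Without COP replicates 2 and 4, Mx1 was called neither for COP minus DA (0.51, adjusted p = 0.211) nor for F344 minus COP (-0.32, adjusted p = 0.437).

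The guanylate-binding protein Gbp2 and the immunity-related GTPase Igtp act on the vacuoles of intracellular pathogens, and both are strongly induced by interferon gamma in mouse. Gbp2 had signals of 1216, 1242, 1282 and 1272 in F344 femora, 832, 822, 837 and 836 in LEW femora, 967, 1148, 1022 and 1130.2 in COP femora and 886, 764, 916 and 844 in DA femora. The 4 LEW values lay between 822 and 837, F344 lay above all other arrays, and COP lay between F344 and both LEW and DA. Gbp2 was 1.51-fold higher in F344 than in LEW (log2 difference 0.59, SE 0.079, adjusted p = 1.96e-05). The signals of Igtp were 677, 751, 667 and 707 on the F344 arrays, 362, 449.7, 428 and 458 on the LEW arrays, 554, 728, 649 and 691 on the COP arrays and 549, 429, 479.9 and 354 on the DA arrays. F344 and COP overlapped, as did LEW and DA. The log2 difference of Igtp was 0.73 (SE 0.13, adjusted p = 0.000473) for F344 minus LEW and 0.65 (SE 0.13, adjusted p = 0.00144) for F344 minus DA. With the mean of its 2 probe sets the F344 minus DA call was lost (0.42, adjusted p = 0.112; range 0.000494 to 0.112 over all alternatives), and the second probe set alone was not called for F344 minus LEW (0.77, adjusted p = 0.0789). Irgm, a related GTPase, passed no contrast.

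Of the sensors, Ifih1 was high in COP and Eif2ak2 was low in LEW. Ifih1 detects long double-stranded RNA. F344 arrays gave Ifih1 signals of 257, 246, 221 and 223, LEW arrays 202, 244, 247 and 318, COP arrays 346, 375, 388 and 412 and DA arrays 212, 245, 267 and 236. The COP arrays lay above all others and the other strains overlapped. On the log2 scale, Ifih1 differed by -0.68 (SE 0.15, adjusted p = 0.00281) for F344 minus COP and 0.67 for COP minus DA. Zbp1, a sensor of nucleic acid in the left-handed form, had mean signals of 417 ± 55.2 for F344, 403 ± 77.5 for LEW, 648 ± 117 for COP and 536 ± 27.3 for DA (SD, n = 4 each). It was called lower in both F344 and LEW than in COP. Eif2ak2, the kinase that stops translation when it binds double-stranded RNA, was lower in LEW than in F344 and COP. Eif2ak2 had signals of 858, 986, 886 and 893 in F344 femora, 407, 576, 679.5 and 834 in LEW femora, 823, 1089, 819 and 907 in COP femora and 815, 914, 825 and 716 in DA femora. The LEW arrays lay below all F344 arrays and spread from 407 to 834. Its log2 difference was 0.58 (SE 0.16, adjusted p = 0.0145) for F344 minus LEW, and LEW minus COP was -0.58 with overlapping arrays.

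The oligoadenylate synthetases make the short adenylate chains that switch on RNase L. The signals of Oas1a were 416, 443, 479 and 433 on the F344 arrays, 346, 393, 476 and 325 on the LEW arrays, 346, 679, 353 and 704 on the COP arrays and 266, 327, 313 and 227 on the DA arrays. COP replicates 2 and 4 were the highest, and DA was below all F344 and COP arrays. The log2 difference was 0.81 (SE 0.21, adjusted p = 0.0127) for COP minus DA and 0.66 (SE 0.21, adjusted p = 0.0347) for F344 minus DA. The COP minus DA call was lost without COP replicate 2 (adjusted p = 0.0597) or 4 (0.0515), and the F344 minus DA call without any of 6 single arrays, with adjusted p from 0.00359 to 0.340 and from 0.00656 to 0.102 over all alternatives. Oasl passed no contrast. Dhx58, a regulator of the RNA sensors, and Oas1b lay under the filter and entered only the fit without a filter. F344 arrays gave Oas1b signals of 82.4, 164, 115 and 82.6, LEW arrays 5.72, 5.44, 3.08 and 44.9, COP arrays 9.04, 6.22, 4.33 and 7.36 and DA arrays 9.04, 30.1, 7.85 and 58.1. All F344 values of Oas1b were above those of every other array, and all 16 lay under the filter level. Without a filter Oas1b was called higher in F344 than in LEW (adjusted p = 0.00512) and COP (adjusted p = 0.00189), with no size given for signals this low. Dhx58 had signals of 177, 122, 146 and 158 in F344 femora, 12.8, 25.3, 14.8 and 72.6 in LEW femora, 139.7, 247, 106 and 198 in COP femora and 106, 118, 85.6 and 69.7 in DA femora. The LEW values of Dhx58 were below all F344 and COP arrays and overlapped DA. Without a filter Dhx58 was called higher in F344 than in LEW (adjusted p = 0.000718), and lower in LEW than in COP (adjusted p = 0.000366) and DA (adjusted p = 0.0122).

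Among the membrane and lipid effectors, Bst2 and Rsad2 differed between strains. Bst2, tetherin, holds budding viruses at the cell surface. The signals of Bst2 were 1986, 2101, 2288 and 1829 on the F344 arrays, 1384, 1389, 1482 and 1326 on the LEW arrays, 1999, 2392, 1707 and 2284 on the COP arrays and 1440.5, 1481, 1735 and 1337 on the DA arrays. LEW lay below all F344 and COP arrays and overlapped DA. Bst2 was 1.47-fold higher in F344 than in LEW (log2 difference 0.55, SE 0.10, adjusted p = 0.000597). Rsad2, viperin, makes a nucleotide analogue that ends viral RNA chains, and Cmpk2, its neighbour in the genome, is a nucleotide kinase. F344 arrays gave Rsad2 signals of 19359, 19472, 19912 and 20180.3, LEW arrays 20065, 17186, 18362 and 16088, COP arrays 17032, 19499, 18036 and 20226 and DA arrays 23706, 22846, 24869 and 22639.7. DA lay above all other arrays, and the log2 difference was -0.25 for F344 minus DA, -0.40 for LEW minus DA and -0.33 for COP minus DA, all called. Cmpk2 was called lower in COP than in DA (-0.31, adjusted p = 0.0363), while its second probe set was not. Ifitm3, which blocks viral fusion, had signals from 10805 to 13932. It was called higher in F344 and in COP than in DA, with differences of 0.19 and 0.19.

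Dtx3l and Parp9 form a ubiquitin ligase complex, and Parp14 attaches ADP-ribose to proteins. The 3 genes lie side by side on chromosome 11. Dtx3l had signals of 1159, 1155, 1074 and 1199 in F344 femora, 756, 681, 869.5 and 895 in LEW femora, 1249, 1721, 1288 and 1569 in COP femora and 1525, 1672, 1599.8 and 1446 in DA femora. The LEW arrays lay below all others. The log2 difference of Dtx3l was 0.53 (SE 0.10, adjusted p = 0.00137) for F344 minus LEW, -0.86 for LEW minus COP and -0.97 (SE 0.10, adjusted p = 9.30e-07) for LEW minus DA. Parp9 was lower in LEW than in COP (-0.72) and DA (-0.55), and its F344 minus LEW difference of 0.32 was not called. Parp14 was higher in F344 than in LEW (0.51) and lower in LEW than in COP (-0.52). Its second probe set was called in no contrast.

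Ifi27, a small membrane protein of mitochondria and the nuclear envelope, showed the smallest adjusted p for F344 minus LEW among the members. The signals of Ifi27 were 18121, 17124, 16527 and 17559.6 on the F344 arrays, 9500.4, 9335, 9122 and 10533 on the LEW arrays, 15520.5, 18489, 15973 and 18788 on the COP arrays and 13174, 14703, 14366 and 14389 on the DA arrays. LEW lay below all other arrays, and DA below all F344 and COP arrays. Ifi27 was 1.80-fold higher in F344 than in LEW (log2 difference 0.85, SE 0.066, adjusted p = 7.37e-09). Ifi44 and Ifi44l are adjacent on chromosome 2. F344 arrays gave Ifi44 signals of 469, 417, 497 and 408, LEW arrays 353, 301, 339 and 444, COP arrays 616, 936, 549 and 808 and DA arrays 683, 736, 742 and 476. COP lay above all F344 and LEW arrays and overlapped DA, with a log2 difference of -0.67 (SE 0.17, adjusted p = 0.00733) for F344 minus COP. That call was lost without COP replicates 2 and 4 (-0.38, adjusted p = 0.211). Ifi44l had signals of 639.5, 621, 641 and 606 in F344 femora, 354, 535, 454 and 425 in LEW femora, 411, 434, 309.6 and 494 in COP femora and 374, 382, 425 and 386 in DA femora. F344 lay above all other arrays, by 0.68 (SE 0.14, adjusted p = 0.00170) over DA, on the log2 scale. Lgals3bp, a secreted glycoprotein, had mean signals of 3162 ± 73.2 for F344, 3093 ± 179 for LEW, 4116 ± 666 for COP and 3873 ± 111 for DA (SD, n = 4 each). It was called lower in both F344 and LEW than in both COP and DA. Ifi35 was called lower in F344 (-0.31) and LEW (-0.42) than in COP. Sp100, a nuclear body protein, and Epsti1 passed no contrast.

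Most of the genes called between F344 and LEW femora were higher in F344. Of the 35 genes, 14 were called higher in F344 and 1, Trim25, lower, with 20 not called, where 14.5% of all genes were called, 6.96% higher and 7.54% lower. The called differences other than Trim25 ran from 0.35 (Ifit2) to 1.02 (Isg15) on the log2 scale. By role, 2 of 4 transcription factors, 2 of 4 genes of the Isg15 system, 3 of 5 GTPases and 2 of 3 genes of the Parp and Dtx3l group were called higher. The same held for 1 of 3 sensors, 1 of 3 Ifit genes, 1 of 4 membrane and lipid effectors, 0 of 2 oligoadenylate synthetases and 2 of 7 other genes. The difference was above 0 for 29 of 35 genes, and the median was 0.32, against 0.01 over all genes. The same 15 genes were those whose 4 arrays did not overlap between the strains (19.3% of all genes).

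COP femora had higher levels than DA femora for most of the genes called. Of the 35 genes, 11 were called higher in COP and 4 lower, where 12.2% of all genes were called, 5.74% higher and 6.42% lower. Those lower in COP were Irf1, Ifit1, Rsad2 and Cmpk2. The GTPases held the most, with Mx1, Mx2, Gbp2 and Igtp all called higher and Irgm not called. Mx2 passed the filter through its COP signals, so its call is not independent of the filter. Its second probe set, not tested, did not show a high COP level. The median was 0.23, against 0.00 over all genes. Without COP replicates 2 and 4, 4 genes were called, 2 in each direction, and 7.16% of all genes.

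The F344 minus LEW and COP minus DA comparisons share no arrays, but both use each gene's spread as estimated from all 16 arrays. In both, 8 genes were called, a share of 53.3% of the 15 in each. Of all 35 members, 42.9% were called for COP minus DA. Of all genes called for F344 minus LEW, 24.6% were called for COP minus DA, where 12.2% of all genes tested were. Usp18, Mx1, Gbp2, Igtp, Bst2 and Ifi27 were higher in F344 than in LEW and higher in COP than in DA. Irf1 and Trim25 differed in opposite directions, with Irf1 at 0.78 for F344 minus LEW and -0.44 for COP minus DA, and Trim25 at -0.52 and 1.28.

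LEW femora differed most from COP femora. Of the 35 genes, 0 were called higher in LEW and 20 lower, where 14.1% of all genes were called, 6.41% higher and 7.72% lower. All 3 sensors tested and all 3 genes of the Parp and Dtx3l group were among the 20, as were Mx1, Mx2, Gbp2 and Igtp. At least 2-fold differences were called for 7 genes, namely Isg15, Usp18, Irf7, Ifit3, Mx1, Mx2 and Ifi44 (1.23% of all genes). Of these, Ifit3 and Mx2 passed the filter through their COP signals. The median difference was -0.44. Without COP replicates 2 and 4, 13 genes were called, with 9.11% of all genes.

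Most of the genes called between LEW and DA femora were lower in LEW. Of the 35 genes, 12 genes were called lower in LEW and 1, Trim25, higher, with 22 not called, where 10.4% of all genes were called, 5.77% lower and 4.65% higher. The median was -0.25. Irf7, Isg15, Dtx3l and Ifi27 were called lower in LEW than in each of the other 3 strains, as were 1.23% of all genes. Against F344 and COP alone, 11 members were called lower in LEW (2.17% of all genes).

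Against COP femora most called genes were lower in F344 femora, and against DA femora they went both ways. For F344 minus COP, 13 genes were called lower in F344 and 3 higher (Irf1, Gbp2 and Ifi44l), where 21.0% of all genes were called, 10.6% lower and 10.4% higher. The 13 include Ifit3 and Mx2, which passed the filter through their COP signals. The total of 16 calls for F344 minus COP was 9 when F344 replicate 2 was left out and 10 when COP replicate 4 was left out. It was 8 without COP replicates 2 and 4, with 12.6% of all genes. The lower calls alone were 7, 8 and 7 without F344 replicate 2, COP replicate 2 and COP replicate 4. For F344 minus DA, 9 genes were called higher and 6 lower, where 17.3% of all genes were called, 8.11% higher and 9.20% lower. The medians were -0.25 for F344 minus COP and -0.01 for F344 minus DA.

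**Figure D3:**
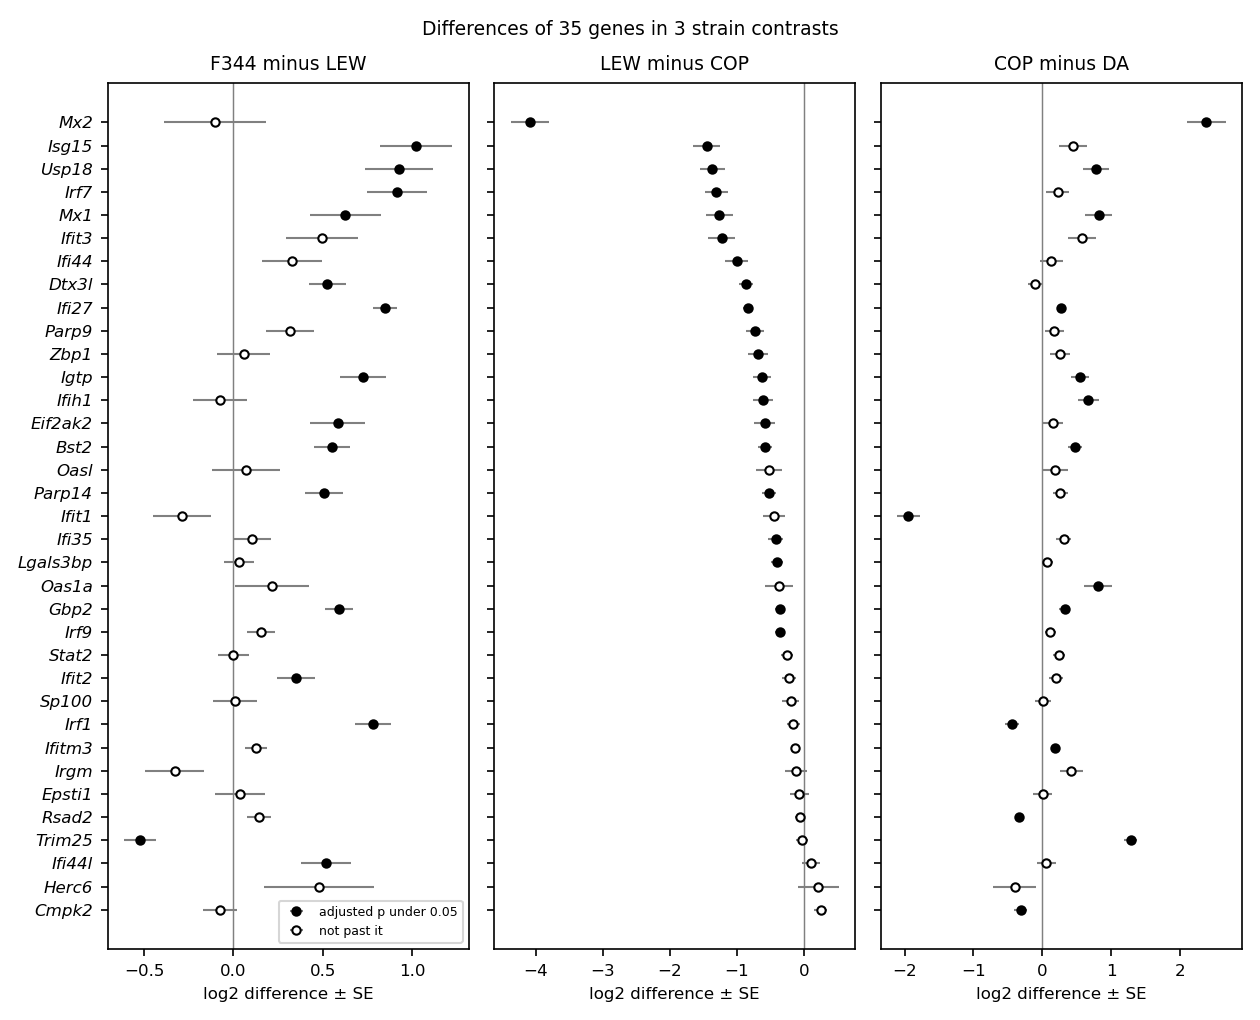
Log2 difference with its standard error for the 35 members in F344 minus LEW, LEW minus COP and COP minus DA, where filled points passed an adjusted p of 0.05. Most points lie right of 0 for F344 minus LEW and left of 0 for LEW minus COP, and Mx2, Ifit1 and Trim25 have the longest distances from 0 for COP minus DA.

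**Figure D4:**
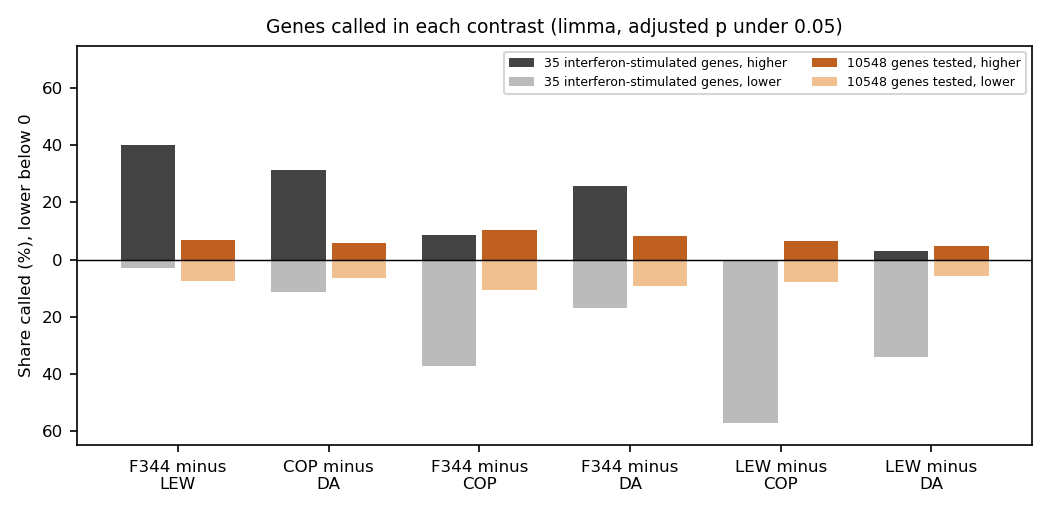
Percent of the 35 members and of the 10548 genes tested that were called in each comparison, with calls higher in the first strain drawn above 0 and calls lower in it drawn below 0. Members called lower in LEW than in COP and higher in F344 than in LEW exceed the share of all genes by the widest margins.

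The 4 COP arrays differed among themselves in these genes. Replicate 2 was among the 2 highest of the 4 COP arrays for 32 of the 35 genes and replicate 4 for 27, against 6 for replicate 1 and 5 for replicate 3, and each array held that place for 48.6% to 52.2% of all genes. Both replicates 2 and 4 were above both others for 26 members, against 13.9% of all genes, a grouping chosen after the values were seen. The median SD of the members within a strain was 0.23 in COP on the log2 scale, against 0.12 over all genes. It was 0.10 against 0.10 in F344, 0.18 against 0.14 in LEW and 0.15 against 0.14 in DA. In DA, replicate 2 was the highest of the 4 arrays for 20 members and replicate 4 for 0, against 26.2% and 26.7% of all genes. Averaged over the members and relative to each gene's mean, the COP arrays stood at 0.10, 0.44, 0.16 and 0.47, above the LEW arrays at -0.36, -0.40, -0.24 and -0.27. The macrophage markers at the same time averaged -0.04, 0.03, -0.05 and -0.0045 on COP replicates 1 to 4, with replicates 2 and 4 also the higher ones. Both were also the higher for the B lymphoid markers (0.27, 0.44, 0.19 and 0.29) and for the genes of interferon induction (0.07, 0.07, 0.01 and 0.11), but not for the T and natural killer cell markers (0.24, 0.20, 0.28 and 0.27). The part of these markers in the spread of the COP arrays was not tested.

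**Figure D5:**
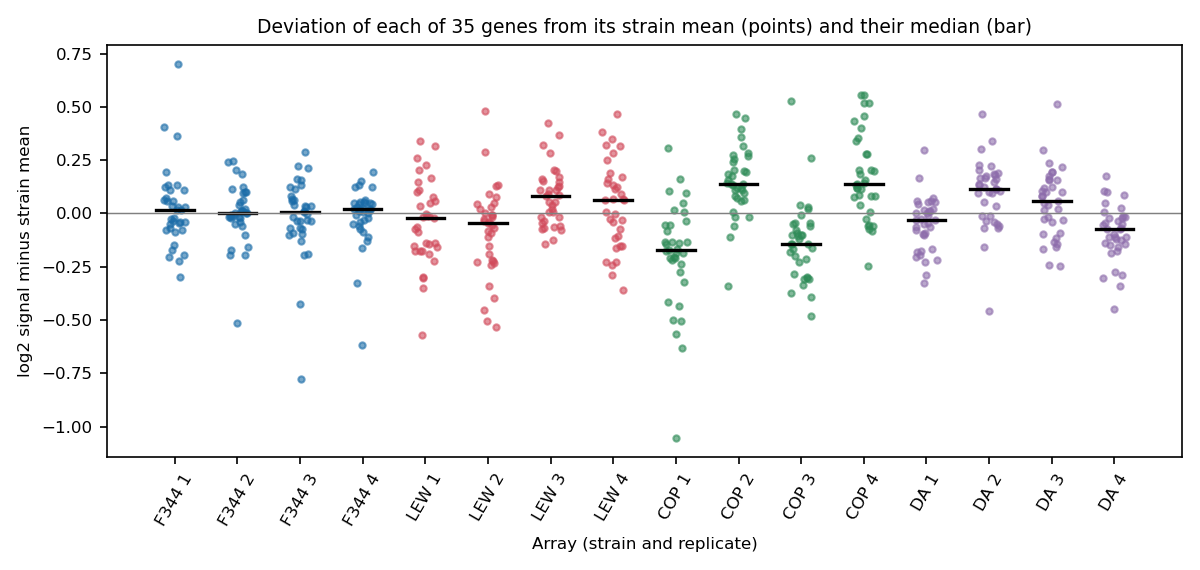
Deviation of each member's log2 signal from its own strain mean on each array, with the median marked by a bar. The medians of COP replicates 1 and 3 lie below 0 and those of COP replicates 2 and 4 above 0, while the F344 arrays lie near 0.

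Among genes upstream of the interferon response, some receptor chains were called lower in LEW, but not all of these by every probe set. Of the genes for interferons and their receptors, 5 of 9 matched passed the filter, and 3 of these 5 were called lower in LEW than in COP, 2 lower in LEW than in DA and 1 higher in F344 than in LEW (14.1%, 10.4% and 14.5% of all genes were called in these comparisons). Ifnb1, Ifnk and Ifng had no signal above 87.4 on any array, under the filter level. Ifnar2, the signalling chain of the type I receptor, was lower in LEW by its brighter probe set. The signals of Ifnar2 were 1579.9, 1705, 1637 and 1708 on the F344 arrays, 1356, 1175, 1133 and 1203 on the LEW arrays, 1535, 1588, 1674 and 1620.2 on the COP arrays and 1910.3, 1799.8, 1753 and 1864 on the DA arrays. The LEW arrays lay below all others, with log2 differences of 0.45 for F344 minus LEW (SE 0.069, adjusted p = 9.23e-05), -0.40 for LEW minus COP and -0.59 for LEW minus DA. A second Ifnar2 probe set went the other way. It read 1105, 996, 1265 and 1051 on F344 arrays, 1236, 1449.7, 1488 and 1417 on LEW arrays, 1029, 1046, 936 and 989 on COP arrays and 1099, 1109, 1279 and 1019.95 on DA arrays. By that set Ifnar2 was lower in F344 than in LEW (-0.34, adjusted p = 0.0142) and higher in LEW than in COP (0.48) and DA (0.31). The probe sets give opposite directions for this receptor chain. Ifngr2, a chain of the interferon gamma receptor, was lower in LEW than in COP (-0.46) by its brighter probe set, and Il10rb was too (-0.24). A second Ifngr2 probe set was not called for LEW minus COP (-0.22, adjusted p = 0.209) or LEW minus DA (-0.08, adjusted p = 0.734). Ifnar1 and Ifngr1 were called in no contrast.

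Of the signal transducers, 9 of 10 matched passed the filter. For F344 minus LEW, 1 of the 9 was called, where 14.5% of all genes were. It was Ptpn6, a phosphatase of blood cells, lower in F344. Stat3, a STAT protein used by many cytokines, had a second probe set far lower in COP, with a COP mean of 421, against 2106 for F344, 2044 for LEW and 2174 for DA (log2 difference 2.33 for F344 minus COP, adjusted p = 4.18e-10), while its brighter set gave 0.33 (adjusted p = 0.0250). Jak1 had signals from 9951 to 11465 and Tyk2 from 961 to 1391 over all arrays. Of 14 genes that act in the induction of interferon, 3 were called for LEW minus COP, all lower, and 2 for F344 minus LEW. Of all genes, 14.1% and 14.5% were called in these comparisons, so the counts are near the background. Unc93b1, which carries the nucleic acid receptors to endosomes, was higher in F344 than in LEW (0.40) and lower in LEW than in COP (-0.34). Irf2, a repressor at response elements, was lower in F344 than in LEW (-0.38). Tlr7, an endosomal RNA sensor, was lower in LEW than in COP (-0.63).

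Markers of marrow cell types also differed between the strains. The share of all genes called was 14.5% for F344 minus LEW, 12.2% for COP minus DA and 21.0% for F344 minus COP. It was 17.3% for F344 minus DA, 14.1% for LEW minus COP and 10.4% for LEW minus DA. Some of the marker counts below are near these shares. For F344 minus LEW, 8 of 12 monocyte and macrophage markers were called higher and 0 lower, with Fcgr3a at 0.99 and Mertk at 0.61. Their summed signal was 62377 to 65066 in F344, 60876 to 66772 in LEW, 69367 to 72948 in COP and 63905 to 77002 in DA. Of 4 T and natural killer cell markers tested, 2 were higher in F344 than in LEW (Il2rb 1.07, Cd3g 1.04) and 2 were lower in LEW than in COP. Their sums were 5331 to 5730 in F344, 3853 to 4443 in LEW, 6063 to 7088 in COP and 3790.5 to 5085 in DA. Cd3e, Prf1, Gzmb and Cd8a lay under the filter level on all arrays. For F344 minus LEW, 4 of 5 B lymphoid, 3 of 5 neutrophil and 2 of 6 erythroid markers were lower, 1 of 3 markers of plasmacytoid dendritic cells was higher, and 0 of 8 bone and 0 of 5 cartilage markers were called. For LEW minus COP, 3 of 12 macrophage and 3 of 5 neutrophil markers were lower and 3 of 6 erythroid and 1 of 5 B lymphoid markers were higher in LEW. For COP minus DA, 3 of 5 neutrophil, 3 of 5 B lymphoid and 2 of 4 T and natural killer cell markers were higher and 3 of 6 erythroid markers lower in COP, while macrophage markers went both ways, 2 higher and 2 lower. For F344 minus COP, 4 of 5 neutrophil and 4 of 5 B lymphoid markers were lower in F344, and likewise for F344 minus DA. The remaining B lymphoid marker, Cd22, was called higher in F344 in both comparisons (0.59 and 0.87). For LEW minus DA, 3 of 12 macrophage markers were lower and 1 higher in LEW, and 3 of 5 B lymphoid markers were higher. In RNA of a whole tissue piece, fewer cells of a type and less RNA per cell cannot be told apart, and the part of these markers in the differences above was not tested.

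Neighbouring members differed in which strain had the highest mean in some clusters and not in others. Ifit1 was highest in DA, while Ifit3, with 1 gene between them, was highest in COP. Ifit2 had its highest mean in F344 by its brighter probe set, where F344 minus COP was not called (0.13, adjusted p = 0.456), and in COP by its second. Mx2, by its brighter probe set, and Mx1 were both highest in COP. The second Mx2 set, under the filter, had its highest mean in F344. Ifi44 had its highest mean in COP and Ifi44l in F344. Dtx3l, Parp9 and Parp14 all had their lowest means in LEW. Rsad2 had its highest mean in DA, as did Cmpk2 by its brighter probe set. The second Cmpk2 set had its highest mean in LEW (1145, against 1140 in DA). The 38 genes lie on 13 chromosomes, with 7 on chromosome 10 and 5 each on chromosomes 1 and 11.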

How the data were processed

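Total RNA of the proximal femur of 4 strains was hybridised to 16 Affymetrix arrays, 4 per strain, from 5 ug of RNA each, per the labels' protocols. The deposited intensity values are 1 linear signal per probe set and array, and MAS5 is the tool that the submitters' processing notes name. Its version and scaling target are not given in the sources used here. On every array the 2% trimmed mean was 1000.3, so the authors' values were already scaled array by array. Such scaling fixes each array's level, and dim probe sets carry more noise. The number of arrays limits the precision.

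Of 31099 probe sets, 57 controls were left out. The platform annotation gave 1 symbol to 20826 probe sets, several to 436 and none to 9780. Signals under 1 (255 values) were set to 1, log2 was taken without a pseudocount, and a filter at the 40th percentile of mean log2 values (174 as a signal) left 18625 probe sets. A linear model with a mean for each strain and 12 residual degrees of freedom was fitted in limma 3.58.1 (R 4.3.3), with an intensity trend in the empirical Bayes step, an F-test and 6 contrasts, and Benjamini-Hochberg adjustment over the kept probe sets at 0.05. The steps were tested on simulated data. Full statistics are given to the members called with the largest absolute log2 differences, up to 12 for F344 minus LEW and 6 for each other contrast. Members, gene lists and tests were chosen with earlier results of these data known. Alternatives were quantile normalization, median centring, a pseudocount of 19.3, filtering at the 60th percentile or not at all, no trend, a replicate block, only the 8 arrays of the strains compared, averaging the probe sets of a gene and leaving out each array. A fit without COP replicates 2 and 4 was added after seeing the data. Promoter sequences and gene order came from RefSeq tables of GRCr8, and figures were drawn with matplotlib 3.10.9.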

Additional observations from a re-analysis of the deposited data

Results flagged for a closer look

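In 5 of the 152 groups of 4 arrays checked (38 genes in 4 strains), the highest or lowest array stood apart from the other 3 by more than Dixon's 95% critical value, where chance gives about 1 in 20. Herc6 read 179 on F344 replicate 4, against 313 to 318 on the other F344 arrays. Trim25 read 2282 on F344 replicate 1, against 2660.1 to 2693 on the others. Oas1b, which lay under the filter, read 44.9 on LEW replicate 4, against 3.08 to 5.72. Sp100 read 1598 on COP replicate 4, against 1012 to 1079, and Epsti1 read 809.8 on DA replicate 2, against 722 to 734.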

How the results depend on the processing

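Of 45 single-gene differences, 42 of members and 3 of Ifnar2, 33 were called under every alternative run. Over 759 alternatives, 722 kept the direction and the call, 36 kept the direction and lost the call, and 1 reversed: with its probe sets averaged Ifnar2 was 0.039 for LEW minus COP, where its probe sets have opposite directions. Members called by the F-test, F344 minus LEW, COP minus DA, F344 minus COP, F344 minus DA, LEW minus COP and LEW minus DA numbered 28, 15, 15, 16, 15, 20 and 13. With the filter at the 60th percentile, which left 22 members to test, the F-test called 18, COP minus DA 9, F344 minus COP 8 and LEW minus COP 13. Without COP replicates 2 and 4, COP minus DA called 4, F344 minus COP 8 and LEW minus COP 13; the cause was not tested. Leaving out 1 array gave 25 to 29 for the F-test, 13 to 15 for F344 minus LEW, 12 to 15 for COP minus DA, 9 to 18 for F344 minus COP, 10 to 14 for F344 minus DA, 19 to 23 for LEW minus COP and 11 to 14 for LEW minus DA. Quantile normalization, median centring, the pseudocount, no filter, no trend, averaging probe sets and the strains fitted alone left each of these counts within 1.5 times. The labels do not pair the replicate numbers: deviations from the strain means correlated by -0.17 to 0.088 over 24 pairs of arrays with the same number, and 4 of 16 arrays correlated best with their own number. With the replicate block, 28, 15, 15, 14, 14, 20 and 13 members were called in that order. Low signals limit Mx2 in F344 and LEW, whose means lay under the filter level.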
